A study of Saccharomyces cerevisiae with 5 samples.

Results

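The genes described are those of the cytosolic small ribosomal subunit of budding yeast (Saccharomyces cerevisiae), taken as every array feature whose annotated symbol is RPS, a number and an optional letter A or B. The rule found 49 genes, each on 1 feature, of 5196 genes with a symbol. In the RefSeq gene table of assembly R64, 56 symbols have this form. The other 7 were not analysed here. Of the 49, 36 form 18 pairs of A and B paralogs, 6 carry a letter but were measured without their partner, and 7 have no letter and are encoded by 1 gene each.

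The cells had been growing exponentially before 16 h at 30 MPa and 25 °C. In the recovery group they were then returned to 0.1 MPa and grown for 2 h. In the decompressed group they were harvested at release, at 0 h. Both groups had therefore been through the pressure treatment, and the labels name no strain. PolyA RNA of the recovery group carried Cy5 and that of the decompressed group Cy3 on the same 2-colour array, in all 3 hybridizations of independent biological samples; without a dye swap, a dye effect and a change cannot be told apart. Values are log2 ratios. The labels do not state the numerator; recovery over decompressed is the likely direction, from the channel order, and with the opposite numerator every higher below would read lower. As bulk measurements relative to all RNA on the array, they do not tell a change per cell from a change in the make-up of the culture.

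The small subunit binds the mRNA and holds the decoding centre, where the codon meets its tRNA. It is built of the 18S rRNA and the RPS proteins, which are parted between a head and a body with its platform. Budding yeast keeps many ribosomal protein genes as near-identical A and B copies, a remnant of a genome duplication, and transcribes them together under Rap1, Fhl1 and Ifh1, with nutrient and growth signals passing through the TOR and protein kinase A pathways. Because the copies are so alike, a spotted array need not separate their transcripts, so each value of a paralog may hold signal from its partner. Probe and gene sequences were not used here.

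Small-subunit genes were more often higher than lower in recovery, by modest amounts. Of the 49, 44 had a value in all 3 hybridizations and were tested. Of these, 13 rose and none fell (limma, adjusted p threshold 0.05). The 13 are 29.5% of the tested members, while 15.1% of all 1891 tested genes and features were called higher and 12.2% lower, 27.2% either way. By unadjusted p the members did not stand out in the same way. It was under 0.05 for 18 of the 44 and for 738 of the 1891, counting both directions. The median log2 ratio of the 44 was 0.44, against 0.09 for everything tested, and 37 had a mean above 0. It was 0.66, 0.25 and 0.52 in hybridizations 1, 2 and 3. The 13 called genes had means of 0.70 to 1.16 (1.63-fold to 2.24-fold), each with all 3 values above 0. Without hybridization 1 only RPS20 and RPS29A were called, 2 of 46 tested, a smaller share than the 6.44% of all tested features then called higher.

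Whether a member's 3 values stayed together varied widely. All 3 lay above 0 for 24 of the 44 and below 0 for 1, RPS24A, which makes 56.8% with 1 sign, against 55.7% of all tested features. Across the 44 members, which share arrays and are not independent, Pearson r was 0.42 between hybridizations 1 and 2, 0.17 between 1 and 3, and -0.03 between 2 and 3. Across all 1891 tested features it was 0.72, 0.59 and 0.55. The members' means cover a narrower range, -0.21 to 1.16 against -3.49 to 2.56, and the difference between these correlations was not tested.

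**Figure D1:**
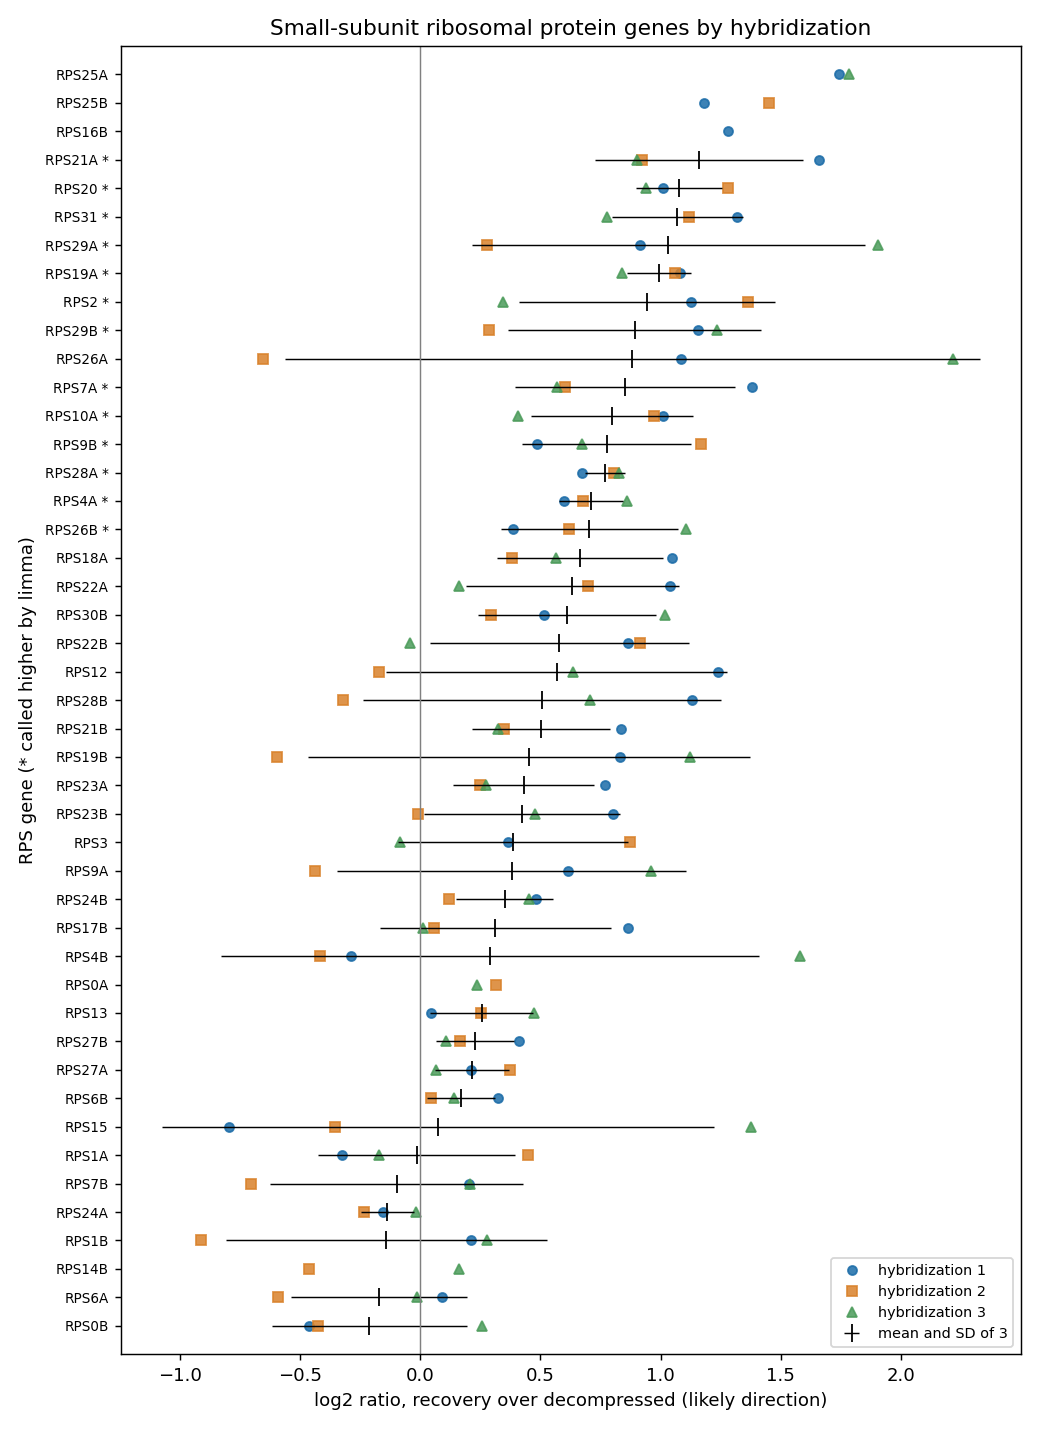
Each RPS gene reported by name is a row, ordered by its mean; symbols are the log2 ratios of the 3 hybridizations, and the black mark and bar are the mean and SD where all 3 exist. The 13 genes called higher carry an asterisk and have all symbols to the right of 0, while RPS26A, RPS15 and RPS4B spread over both sides.

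Among the head proteins, RPS20, RPS31, RPS29A and RPS19A had the highest tested means. RPS20 (YHL015W), a head protein with no second copy, stood at 1.01, 1.28 and 0.94 in hybridizations 1, 2 and 3, a mean log2 ratio of 1.08 ± 0.18 (SD, n = 3, limma adjusted p = 0.00499), or 2.11-fold. RPS31 (YLR167W), which is made as a fusion of ubiquitin with the ribosomal protein, stood at 1.32, 1.12 and 0.78, a mean of 1.07 ± 0.27 (adjusted p = 0.0057). RPS19A (YOL121C) stood at 1.08, 1.06 and 0.84, a mean of 0.99 ± 0.13 (adjusted p = 0.00769). For these 3 genes all arrays gave values of similar size. RPS29A (YLR388W), one of the copies of a small zinc-binding head protein, had a mean of 1.03 from the more scattered values 0.91, 0.28 and 1.91 (SD 0.82, adjusted p = 0.019). Its partner RPS29B (YDL061C) stood at 1.15, 0.28 and 1.24, a mean of 0.89 ± 0.53 (adjusted p = 0.0217). Hybridization 2 was the low one for both copies.

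RPS10A and RPS28A completed the called head genes, at 0.80 ± 0.34 and 0.77 ± 0.08. RPS10A (YOR293W), whose protein lies near the entry of the mRNA channel, had 1.01, 0.97 and 0.41, and RPS28A (YOR167C), whose protein lies near its exit, had 0.67, 0.81 and 0.83. The head genes without a call were RPS18A at 0.66 ± 0.34 (adjusted p = 0.0584), RPS12 at 0.57, RPS28B at 0.51, RPS19B at 0.45, RPS3 at 0.39, RPS17B at 0.31 and RPS15 at 0.07. RPS18A was called higher in 5 of 14 alternatives, among them all those centred within feature groups. RPS19B was called higher in 3 of 14 and RPS17B in 1, and the others in none. RPS12, RPS28B and RPS19B had negative values in hybridization 2 and positive ones in the other two. RPS3, which lines the mRNA entry channel, was above 0 in hybridizations 1 and 2 (0.37 and 0.87) and at -0.08 in hybridization 3.

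The highest tested mean of all belonged to a body protein gene. RPS21A (YKR057W) stood at 1.66, 0.92 and 0.90, a mean of 1.16 ± 0.43 (adjusted p = 0.00464), or 2.24-fold. RPS2 (YGL123W), a single-copy gene whose protein acts in decoding accuracy, stood at 1.13, 1.36 and 0.35, a mean of 0.94 ± 0.53 (adjusted p = 0.0168). RPS9B (YBR189W), one of the copies for another accuracy protein, stood at 0.49, 1.17 and 0.67, a mean of 0.78 ± 0.35 (adjusted p = 0.0315). All values of these genes were above 0, with hybridization 1 highest for RPS21A and hybridization 2 highest for RPS2 and RPS9B.

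RPS7A (YOR096W) had 1.38, 0.60 and 0.57 and a mean of 0.85 ± 0.46, and RPS4A (YJR145C) had 0.60, 0.68 and 0.86 and a mean of 0.71 ± 0.13. RPS26B (YER131W), whose protein sits at the mRNA exit channel, had 0.39, 0.62 and 1.11 and a mean of 0.70 ± 0.37; its adjusted p of 0.048 was the highest of the 13 calls. RPS26A had a larger mean of 0.88, yet no call (adjusted p = 0.11), with values of 1.08, -0.65 and 2.22 (SD 1.45). Without hybridization 2 its mean was 1.65 and called (limma adjusted p = 0.00546), and it was also called with the high power scans alone and in the fit over genes with at least 2 values. In hybridization 2 this feature had 0.04 at high and -1.35 at low laser power.

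The remaining 23 body and platform genes with 3 values ran from -0.21 (RPS0B) to 0.63 (RPS22A) without a call. RPS0B, a copy for a protein needed in late maturation of the small subunit rRNA, stood at -0.46, -0.43 and 0.26. The copies of RPS6, the phosphorylated ribosomal protein downstream of TOR, had means of -0.17 (RPS6A) and 0.17 (RPS6B), and those of RPS1 -0.01 (RPS1A) and -0.14 (RPS1B). RPS24A, at -0.16, -0.24 and -0.02, was the member with all values below 0, and its mean of -0.14 ± 0.11 was not called (adjusted p = 0.714). The mean of RPS7B was -0.10. In all 7 genes with a mean below 0 the limma interval included 0.

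By region of the subunit, 7 of 14 tested head genes and 6 of 30 body and platform genes rose, at median log2 ratios of 0.72 and 0.37. As shares these are 50% and 20%, the second nearer to the 15.1% of everything tested. The head median was higher in each hybridization, by 0.53, 0.19 and 0.44. Head genes on the array were also shorter, with a median annotated span of 432 bases against 813.5. After the trend of the ratio on span was removed the medians were 0.26 and 0.20. In that setting 2 and 5 genes were called, beside 10.3% of all tested genes called higher. Centring within the 48 feature groups, described with the paralogs and chosen after seeing the data, and then removing that trend gave medians of 0.41 and 0.22. There 6 and 4 were called, beside 14.4% of all tested genes called higher. With 16 groups of consecutive features in place of the 48, the medians were 0.32 and 0.27. With those, 2 and 3 were called, beside 12.4%. The size of the head excess therefore depended on the setting. The 7 single-copy genes (RPS2, RPS3, RPS12, RPS13, RPS15, RPS20 and RPS31) all had means above 0, from 0.07 to 1.08, and 3 rose.

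Members without 3 values held some of the largest ratios and were outside the test. RPS25A, a head protein gene, stood at 1.74 and 1.78 in hybridizations 1 and 3, and its copy RPS25B at 1.18 and 1.45 in hybridizations 1 and 2. In a fit over genes with at least 2 values both were called, with adjusted p values of 1.2e-06 and 0.000538 (limma), among 17 members higher and none lower of 48; 11.9% of everything in that fit was called higher. The error of a gene with 2 values rests mostly on the pooled variance there. RPS16B had 1.28 in hybridization 1 alone, RPS0A 0.31 and 0.24, and RPS14B -0.46 and 0.16 in hybridizations 2 and 3.

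High and low laser power scans gave the members different coverage. In hybridization 2, 18 of the 49 (36.7%) had a value in the low power scan and none in the high power scan, against 2.21% of all genes and unnamed features; in hybridization 1 the numbers were 7 members (14.3%) and 1.86%. Per the labels, the arrays were scanned at both powers to recover spots too bright for the scanner's range. All 7 members with a low power value alone in hybridization 1 had a low power value alone in hybridization 2 too. They include RPS2, RPS12 and RPS31. Of the 13 called genes, 7 rest in hybridization 2 on the low power scan. Where both scans had a value, the low power ratio exceeded the high power one for 30 of 40 members in hybridization 1, by a median of 0.21, and for 7 of 28 in hybridization 2, with a median difference of -0.11. Over all features those medians were -0.01 and -0.05. With the low power scans alone 13 of 43 members were called higher, beside 12.4% of everything tested, and with the high power scans alone 6 of 28, beside 16.3%. Hybridization 3, which has a single column of values, covered 95.9% of the members and 33.0% of all genes and unnamed features. It therefore largely set what was tested, with 4213 genes and features tested without it against 1891 with it.

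**Figure D2:**
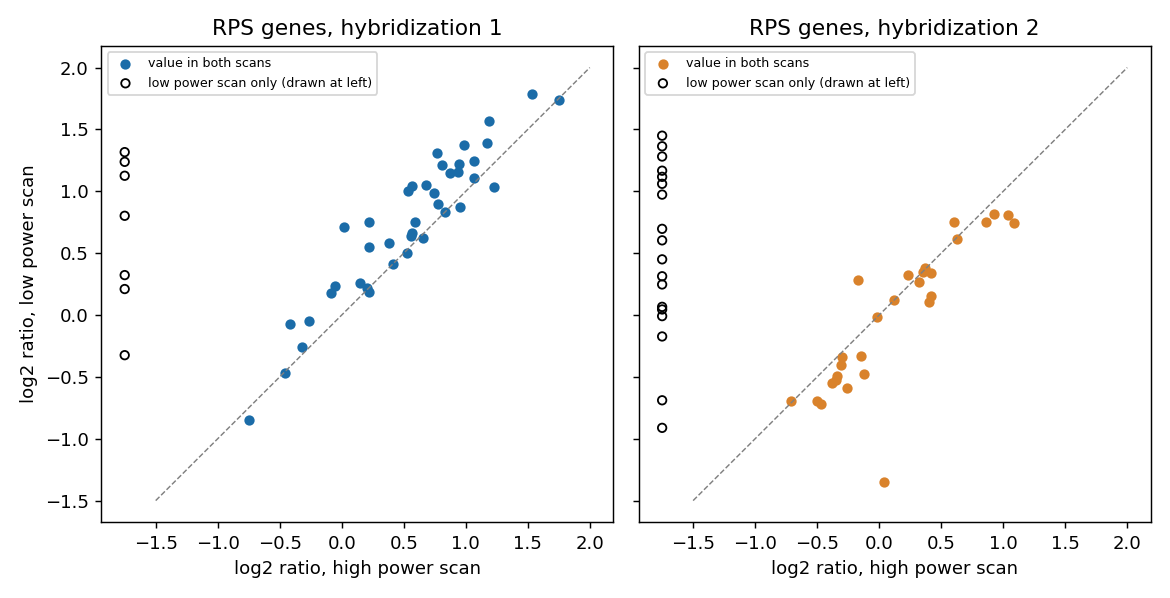
Each point is an RPS gene, with the log2 ratio of the high power scan on the x axis and that of the low power scan on the y axis, for hybridization 1 (left) and 2 (right); open circles at the left edge had a low power value only, 7 and 18 genes. Most filled points lie above the line of equal values in hybridization 1 and below it in hybridization 2, where RPS26A at 0.04 and -1.35 lies farthest off.

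The A and B paralogs were compared by the difference of their log2 ratios on the same array, which asks whether the copies of 1 protein responded alike. Both copies had 3 values in 16 of the 18 pairs. In 1 pair, RPS29, both copies were called higher, in 7 pairs one copy was, and in 8 neither. Taken by letter, 7 of 18 tested A copies and 3 of 19 tested B copies rose, at medians of 0.65 and 0.35; the share among B copies, 15.8%, is near the 15.1% of everything tested, and that among A copies is 38.9%. The difference itself passed in no pair: limma over all 38 A and B pairs of ribosomal protein genes called 0 of the 16, as it did 0 of the 38 (0%), and 2 of the 16 had an unadjusted p under 0.05. Leaving out hybridization 2 gave 1 call, RPS26, with A higher by 0.90 (adjusted p = 0.0307).

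RPS7 had the largest difference. RPS7A exceeded RPS7B by 1.18, 1.31 and 0.36, a mean of 0.95 ± 0.51 (SD, n = 3, 95% interval 0.29 to 1.61, adjusted p = 0.385 over the 38 pairs), or 1.93-fold. RPS21A exceeded RPS21B by 0.83, 0.57 and 0.58, a mean of 0.66 ± 0.14 (0.08 to 1.24, adjusted p = 0.588). These were the 2 pairs with an unadjusted p under 0.05. In the other direction RPS24A lay below RPS24B by a mean difference of -0.49, from -0.64, -0.36 and -0.47 (-1.07 to 0.09, adjusted p = 0.603), and RPS6A below RPS6B by -0.34 (-0.94 to 0.26). In these 4 pairs alone did all 3 hybridizations give the difference 1 sign. By size RPS19 was the third, at 0.54, from 0.25, 1.66 and -0.28, so that its mean was set mostly by hybridization 2.

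The smallest differences were those of RPS23 at 0.0057 (-0.59 to 0.60), RPS27 at -0.01 (-0.60 to 0.58), RPS22 at 0.05 (-0.54 to 0.65) and RPS1 at 0.13 (-0.76 to 1.02). The intervals still hold differences above 0.5 in either direction, so equal responses were not shown. For RPS1 the mean hid single values of -0.53, 1.36 and -0.45. Further mean differences were 0.42 (RPS4), 0.26 (RPS28), 0.18 (RPS26), 0.14 (RPS29) and -0.40 (RPS9). Over the 16 pairs the median size of the difference was 0.24, beside 0.20 for the 22 pairs of the large subunit and its stalk. As a description over 16 pairs on shared arrays, the means of A and B copies correlated with Pearson r = 0.52 and Spearman rho = 0.54; within hybridizations 1, 2 and 3 Pearson r was 0.28, -0.40 and 0.69.

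**Figure D3:**
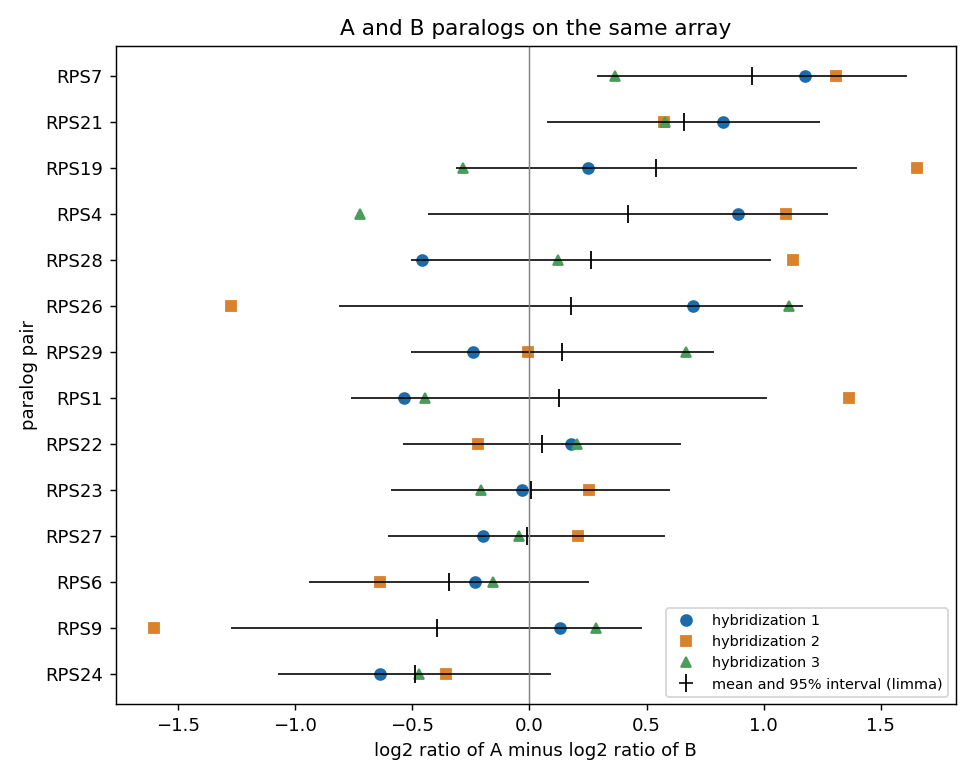
Each row is an A and B pair reported by name, and the x axis is the log2 ratio of the A copy minus that of the B copy; symbols are the 3 hybridizations and black bars the mean with its 95% interval. The intervals of RPS7 and RPS21 lie to the right of 0, at 0.29 to 1.61 and 0.08 to 1.24, and those of the other pairs drawn include 0.

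Paralog differences moved with where the copies lie in the array's feature numbering. The features fall into 48 groups of equal size that share the first 3 digits of their number, and the median log2 ratio of a group ran from -0.44 to 0.36 in hybridization 1, from -0.77 to 0.64 in hybridization 2 and from -0.67 to 1.03 in hybridization 3. Across the 16 pairs, the A minus B difference correlated with the difference of the copies' group medians with Pearson r = 0.72, 0.81 and 0.71 in the 3 hybridizations. For single members, Pearson r with the own group's median was 0.58, 0.74 and 0.44 over the 44 tested. Spearman rho was 0.51, 0.73 and 0.20, so the link in hybridization 3 was weaker by rank. Each group median includes the member itself, and in hybridization 3 RPS27A was the median of its group. The correlations are across genes on shared arrays and are given as a description.

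RPS19 and RPS4 serve as examples, chosen after their values were seen. In hybridization 2 the feature group of RPS19A had a median 1.41 above that of RPS19B, and the copies differed by 1.66. The RPS4B group had medians of -0.44, -0.37 and 1.03, and RPS4B itself stood at -0.29, -0.42 and 1.58, low in hybridizations 1 and 2 and high in 3. RPS15, in the same group, followed it with -0.80, -0.36 and 1.38. When each array was centred within these groups, a choice made after seeing the data, RPS19A minus RPS19B became 0.01, 0.25 and 0.20 (SD 0.13 in place of 1.00) and RPS4A minus RPS4B 0.53, 0.36 and 0.52 (SD 0.10 in place of 1.00). The difference for RPS21 fell to 0.13 and that for RPS7 to 0.58, while that for RPS24 was -0.56.

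Over all pairs, centring within the 48 groups lowered the SD over hybridizations in 11 of 16, and its median went from 0.49 to 0.37. For single members the SD fell in 22 of 44, those with 1 sign on all arrays stayed at 25, and r went from 0.42 to 0.37 between hybridizations 1 and 2, from 0.17 to 0.36 between 1 and 3 and from -0.03 to 0.11 between 2 and 3. The number of pairs with 1 sign on all arrays went from 4 to 6, and 5 had an unadjusted p under 0.05, but again none passed over the 38 pairs (limma, lowest adjusted p = 0.156). RPS19B then rose too, at 0.64 beside 0.79 for RPS19A, and the members called higher numbered 18 of 44, with none lower, while 17.7% of all tested features were called higher. Their median was 0.52 and 41 of the 44 had a mean above 0. RPS26B was the one gene of the 13 to lose its call there.

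**Figure D4:**
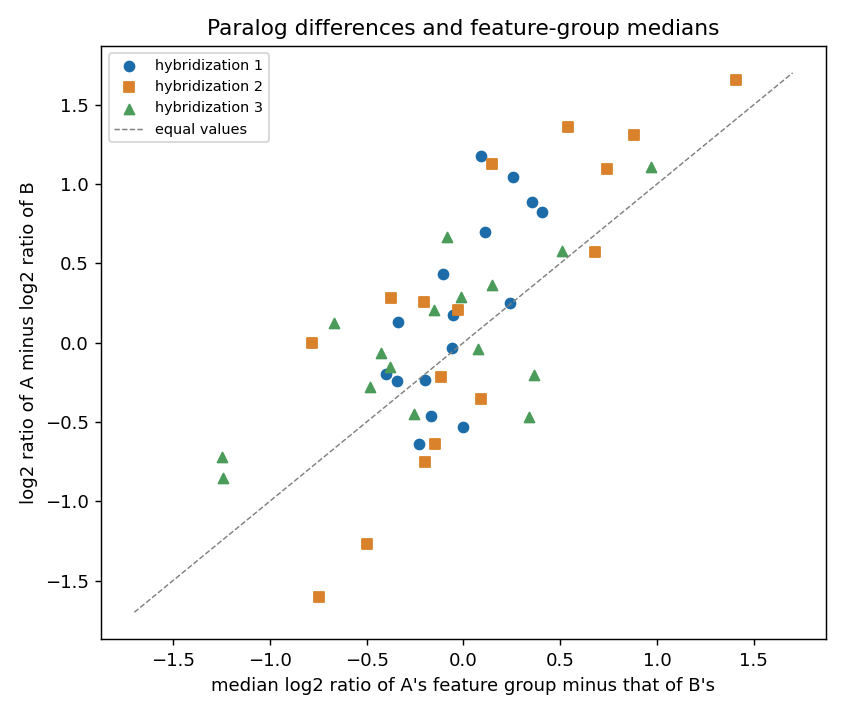
Each point is 1 of the 16 pairs in 1 hybridization, with the difference of the median log2 ratios of the copies' feature groups on the x axis and the A minus B difference on the y axis; the dashed line marks equal values. The points rise together, from RPS4 in hybridization 3 at -1.25 and -0.72 to RPS19 in hybridization 2 at 1.41 and 1.66.

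Members were also short genes, and ratios fell with gene length on every array. Spearman rho between ratio and annotated span (start to stop codon, introns included) was -0.48, -0.24 and -0.23 over all named genes in hybridizations 1, 2 and 3, and -0.43 over the means of the 44 members. The tested members spanned 171 bases (RPS29A and RPS29B) to 1118 (RPS0B). The 920 tested genes outside the ribosomal protein sets with spans in that range had a median log2 ratio of 0.21 and 20.7% called higher. After each array's trend on span was removed, 7 of the 44 members were called higher (RPS2, RPS4A, RPS7A, RPS9B, RPS19A, RPS21A and RPS31) and none lower, at a median of 0.21, beside 10.3% of all tested genes called higher and a median of 0.03. Because spans include introns, which many RPS genes have, the removed trend need not match mRNA length.

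**Figure D5:**
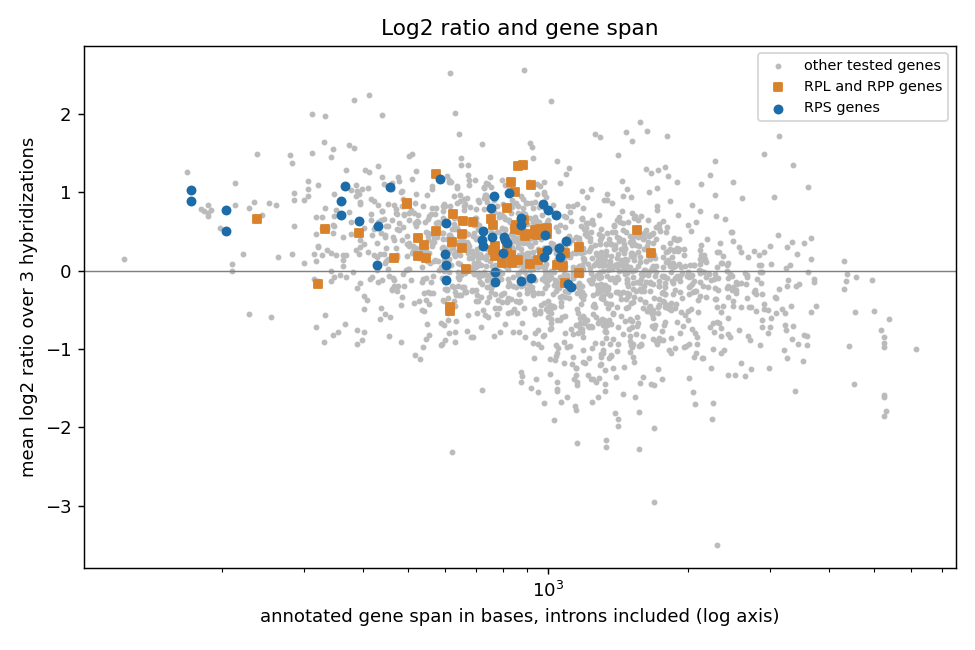
Mean log2 ratio over 3 hybridizations against annotated gene span (log axis) for tested genes with a span: RPS genes in blue, RPL and RPP genes in orange, others in grey. The shortest RPS genes, RPS29A and RPS29B at 171 bases, lie at 1.03 and 0.89.

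The large-subunit genes, the group most like this one, had nearly the same median. Of 63 tested RPL and RPP genes, 10 rose and none fell (15.9%), a share near the 15.1% of everything tested, at a median log2 ratio of 0.44. Their means lay above 0 in 92.1%, against 56.6% of everything tested. The share called depended on the setting. After centring within 16 groups of consecutive features, 18 of the 63 rose and 1 fell, where 16.5% of everything tested was called higher. Within the 48 groups 20 rose and none fell, beside 17.7%. The RPS median minus the RPL median was 0.16, -0.04 and 0.15 in the 3 hybridizations, so that its sign was not shared. Proteins bound to the small subunit other than RPS, mostly initiation factors, had 0 called of 8 tested (limma). The unadjusted p was under 0.05 for 738 of all 1891 genes and features tested, and for 4 of these 8. Of these 4, TIF11 (eIF1A) was at 0.65 ± 0.12 (adjusted p = 0.0548) and NIP1, a subunit of eIF3, at -0.60 ± 0.19 (adjusted p = 0.0751). TIF5 was at 0.61 ± 0.43 and STM1 at 0.64 ± 0.72, so NIP1 alone was below 0. Among the alternatives, TIF11 was called higher with the high power scans alone and NIP1 lower with each array centred on its median. TIF5 was called higher after centring within the 48 groups. It was also called higher with the span trend removed, whether alone or after centring within the 16 or the 48 groups. In the list of enzymes that modify small-subunit proteins 0 of 3 tested were called, and none had an unadjusted p under 0.05. With the 48 groups centred and the span trend removed, 1 of the 3, NAT1, was called higher, beside 14.4% of all tested genes.

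Of the genes that control ribosomal protein transcription, 19 of 23 were on the array and 7 tested. None rose and 1 fell (14.3%), beside 12.2% of everything tested called lower. The gene that fell was IFH1, the coactivator that joins Fhl1 at ribosomal protein promoters. It stood at -1.11, -1.09 and -1.16, a mean of -1.12 ± 0.04 (SD, n = 3, limma adjusted p = 0.00379), with the 3 arrays close together and opposite in sign to the RPS median. Across the 14 alternative settings it was called lower in every one, at -1.26 to -0.76. ABF1, a general factor that binds some of these promoters, was at 0.40 ± 0.34 without a call. It was called higher in 2 of 14 alternatives, those centred within feature groups with the span trend removed. Among assembly factors and chaperones of the small subunit, 1 of 10 rose (10%) and none fell, beside 15.1% of everything tested called higher. FAP7, an ATPase of late assembly, was at 0.76 ± 0.57 (adjusted p = 0.0454), from 0.92, 1.23 and 0.13, and kept its call in 6 of 14 alternatives. The dimethylase gene DIM1 was at 0.62 and the endonuclease gene NOB1 at -0.56, both without a call. NOB1 was called lower in the 4 alternatives centred within feature groups, at -0.77 to -0.58, and DIM1 higher in 1 of them. With at least 2 hybridizations, 1 assembly gene of 14 rose and 3 fell (RIO1, RRP12 and TSR1), chosen here after their values were seen. In that fit 11.9% of everything was called higher. The share called lower is not given here, so the 3 cannot be set against it.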

How the data were processed

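The authors deposited 1 log2 ratio per feature and scan, in 5 columns with medians of -0.01 to 0.01; per the labels, LOWESS normalization used only spots flagged 0. Base 2 was read from the values. Scans of a hybridization were averaged, as were features of 1 gene. Of 6336 features, 5297 had 1 gene symbol each, 1039 had none and 0 had several; 5293 matched RefSeq (assembly R64). Means were tested against 0, two-sided, with limma 3.58.1 in R 4.3.3 (lmFit, eBayes, Benjamini-Hochberg) over the 1891 genes and unnamed features with 3 values; the median SE was 0.25. Paralog differences were fitted over all 38 A and B pairs. No pseudocount, floor or centring was applied. The tested genes and features had medians of 0.13, 0.16 and 0.0018 in hybridizations 1, 2 and 3. An exact sign test on 3 hybridizations cannot go below p = 0.25. The steps were tested on simulated data.

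The members, lists and tests were chosen with earlier results of these data known. Every RPS gene could be named, though a few members are not reported by name here and enter the counts and medians only; from other lists, up to 4 genes with the smallest p. Alternatives were single scans, the 5 scans blocked by hybridization, centring, missing values, span, feature groups, separate features and each hybridization left out. Spot brightness was not used here, so the depth behind a ratio is unknown, and the number of arrays limits precision.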

Additional observations from a re-analysis of the deposited data

How the results depend on the processing

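No call of a named RPS gene or pair changed direction under any alternative, and every reversal was of a value without a call. Over the members reported by name and the alternatives, 446 values kept direction and side of the threshold, 52 lost a call, 18 gained one and 29 changed sign. For pairs these were 144, 0, 1 and 29. The kept values include alternatives that could not move the mean. Separate features and at least 2 hybridizations leave the mean of a tested member as it was, and centring on array medians leaves A minus B as it was. None of the 13 called genes kept its call in every setting that tested it. RPS calls numbered 2 without hybridization 1, 9 without hybridization 2 and 12 without hybridization 3 (of these 2, 6 and 9 were among the 13), beside 6.44%, 9.11% and 12.1% of everything tested called higher, and 6 of 28 tested with the high power scans alone. They numbered 10 of 44 with each array centred on its median (median log2 ratio 0.34), where 12.3% of everything tested was called higher. With the span trend removed they numbered 7 (median log2 ratio 0.21), beside 10.3%. With it removed after centring 16 groups of consecutive features they numbered 5, where 12.4% of everything tested was called higher. RPL and RPP calls ranged from 4 to 11 with a hybridization left out. After centring the 16 groups they numbered 19 of 63 tested (18 higher and 1 lower), where 16.5% of everything tested was called higher. After centring the 48 groups they numbered 20 of 63, all higher, beside 17.7%. RPS pair calls ranged from 0 to 1. The 48 groups were chosen after seeing the data. The causes were not tested.

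The other mean log2 ratios that changed sign follow, with the cause not tested. Centred on array medians, RPS15 was at -0.023. With the span trend removed, RPS15 was at -0.29, RPS27A at -0.045 and RPS28B at -0.15. In the 16 groups, RPS0B was at 0.095, RPS24A at 0.17 and RPS7B at 0.22. With the span trend removed as well, RPS0B was at 0.14, RPS15 at -0.14, RPS28B at -0.22, RPS3 at -0.18 and RPS7B at 0.085. In the 48 groups, RPS0B was at 0.0058, RPS1A at 0.015, RPS24A at 0.081 and RPS7B at 0.33. With the span trend removed as well, RPS0B was at 0.057, RPS15 at -0.35, RPS28B at -0.31, RPS3 at -0.20, RPS6A at 0.034 and RPS7B at 0.20.

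Differences of A minus B changed sign likewise. The low power scans alone gave RPS26 -0.10. The span trend removed gave RPS22 -0.18 and RPS23 -0.0031. The 16 groups gave RPS1 -0.029, RPS23 -0.17 and RPS27 0.22, and with the span trend removed RPS1 -0.029, RPS23 -0.18 and RPS27 0.17. The 48 groups gave RPS23 -0.028, RPS26 -0.015 and RPS27 0.11, and with the span trend removed RPS22 -0.053, RPS23 -0.040, RPS26 -0.015, RPS27 0.058 and RPS9 0.058.

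With each hybridization left out in turn, mean log2 ratios ran from -0.58 to 0.51 for RPS15, -0.25 to 0.14 for RPS1A, -0.35 to 0.24 for RPS1B and -0.35 to 0.65 for RPS4B. They ran from -0.30 to 0.038 for RPS6A and -0.25 to 0.20 for RPS7B. Differences of A minus B ran from -0.49 to 0.46 for RPS1, -0.016 to 0.95 for RPS19, -0.021 to 0.19 for RPS22, -0.12 to 0.11 for RPS23 and -0.29 to 0.90 for RPS26. They ran from -0.12 to 0.083 for RPS27, -0.17 to 0.62 for RPS28, -0.12 to 0.33 for RPS29 and -0.74 to 0.21 for RPS9.

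No paired analysis was possible because the series has 1 group of ratios, in which each array already sets the samples against each other.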
